A study of Homo sapiens and Mus musculus with 4 samples.

Results

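The constitutive proteasome genes are the genes of the standard subunits of the proteasome, together with the genes of its activator proteins. They were taken as a fixed list of 35 symbols, by a rule that uses no measured value, although earlier results of these data were known. The list holds PSMA1 to PSMA7 of the alpha ring, PSMB1 to PSMB7 of the beta ring, the ATPases PSMC1 to PSMC6, 11 PSMD genes of the regulatory particle and the activators PSME1 to PSME4. Of the 35 symbols, 34 were found among the 32738 human genes of the table and 35 among its 27998 mouse genes. Human PSMB3 could not be matched to a row by its annotated identifier and was not analysed here.

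The proteasome is the main machine for the breakdown of proteins that carry ubiquitin chains. Its core is a barrel in which outer alpha rings hold a gate and inner beta rings hold the catalytic sites. The regulatory particle caps the barrel, where its ATPases unfold the substrate and its other subunits bind and remove ubiquitin. In lymphoid cells, inducible catalytic subunits can replace the constitutive ones and form the immunoproteasome, which shapes the peptides shown to T cells. Activators such as PA28 and PA200 can take the place of the regulatory particle.

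Bulk RNA sequencing gave 1 stranded messenger RNA library for each of 4 established cell lines, with no treatment named. Jurkat, a human CD4 T-cell leukaemia line, was compared with TALL104, a human CD8 T-cell leukaemia line kept in medium with interleukin-2. EL4, a mouse T-cell lymphoma line, was compared with IVA12, a mouse hybridoma of the B lineage. Per the study's methods, each line had its own culture medium, so the line, its medium and its library cannot be told apart. The study also describes TALL104 cells as smaller than the other lines, harder to culture, slow to grow and limited in viability. These traits cannot be told apart from the line either. Values were FPKM, which is a read count scaled by gene length and by library size.

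Reads behind the FPKM were recovered from the steps between values, and the library totals lay between 25286728 and 34783047 reads. With 1 library per line there was no spread between replicates and no test. Intervals are 95% counting intervals of the recovered reads, and they do not cover differences between cultures. The T-cell list had 8 of 8 markers at 1 FPKM or more in Jurkat, TALL104 and EL4. It had 2 of 8 in IVA12, with a summed level of 12.1 FPKM against 680 FPKM in EL4. The list of 8 B-cell and plasma cell markers summed to 2131 FPKM in IVA12, where Cd79a was nevertheless near 0, at 0.0543 FPKM. The same list summed to 16.7 FPKM in EL4, 99.0 FPKM in Jurkat and 123 FPKM in TALL104.

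The first comparison asked whether the human lines differed in proteasome transcripts. Most of these genes were higher in Jurkat. Summed over the 34 measured genes, the level was 1919 FPKM in Jurkat and 974 FPKM in TALL104, which is 1.97-fold higher in Jurkat. This was 0.756% of all human FPKM in Jurkat and 0.386% in TALL104. An FPKM is a share of the library, so less proteasome messenger RNA per cell and more of other messenger RNA cannot be told apart.

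A gene was counted as different when its ratio on FPKM + 1 exceeded 1.5-fold. By this rule 26 of the 34 human genes were higher in Jurkat and 1, PSME4, was higher in TALL104. The background over the 12214 human genes with at least 1 FPKM in either line was 34.2% higher in Jurkat and 28.4% higher in TALL104. Among the 3440 genes that reached 10 FPKM in each of the lines it was 31.9% and 16.0%. All 34 genes had at least 1 FPKM in both lines, so none was lost to the filter. The median log2 ratio of the 34 genes was 0.92, and the median of the 12214 genes was 0.10. Relative to the median of genes that reached 1 FPKM in each line, the proteasome median was 0.81 and the number higher in Jurkat was 23.

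In the mouse pair the proteasome genes leaned the other way and by less. Their summed level was 3394 FPKM in EL4 against 4477 FPKM in IVA12, or 1.32-fold higher in IVA12. As shares of all mouse FPKM these sums were 1.05% and 1.39%. Of the 35 genes, 0 were more than 1.5-fold higher in EL4 and 10 were more than 1.5-fold higher in IVA12. Over the 10801 mouse genes with at least 1 FPKM in either line, 23.8% were higher in EL4 and 26.5% in IVA12. The shares were 13.7% and 17.8% among the 4023 mouse genes that reached 10 FPKM in each line. All 35 proteasome genes belong to this latter class, with a lowest level of 23.3 FPKM. Their share higher in IVA12 was near that of the wider class and above that of the latter, and their share higher in EL4 was below both. The median log2 ratio, EL4 over IVA12, was -0.35 against -0.04 for the 10801 genes, and 28 of the 35 values were below 0.

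**Figure D1:**
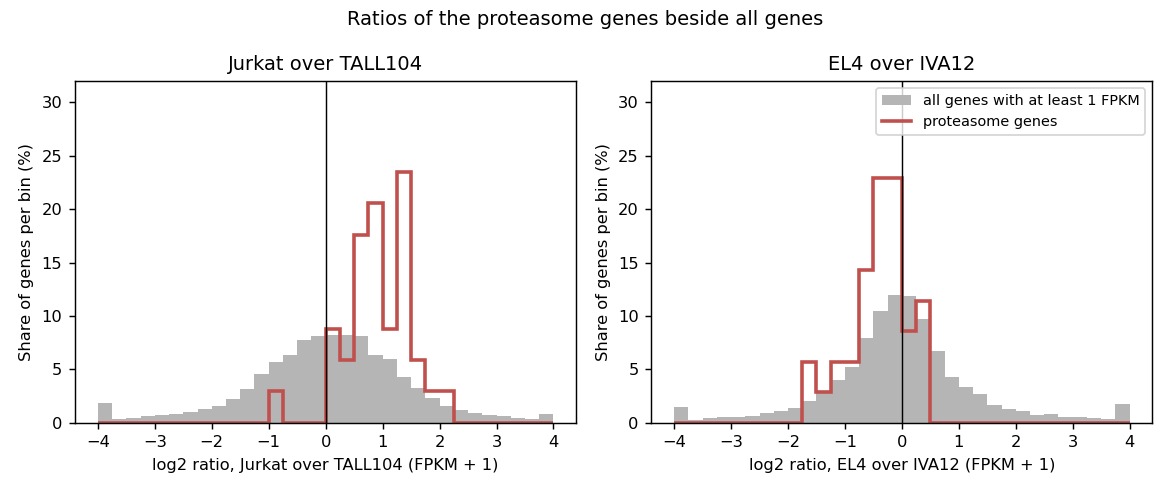
Share of genes per bin of 0.25 on the log2 ratio of FPKM + 1, for the proteasome genes (red line) and for all genes with at least 1 FPKM in either line (grey), with values beyond the axis gathered in the end bins. In the human pair 33 of 34 proteasome genes lie above 0, and in the mouse pair 28 of 35 lie below 0.

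The alpha ring, whose subunits open and close the entry to the core, was higher in Jurkat for 6 of 7 genes. Beside this, 34.2% of all human genes with at least 1 FPKM in either line were higher in Jurkat. The median log2 ratio of the alpha ring was 0.94. Its highest member in the human lines was PSMA7, at 126 FPKM in Jurkat and 68.1 FPKM in TALL104. PSMA4 had 87.5 and 28.5 FPKM, PSMA3 69.6 and 26.5 FPKM, and PSMA5 38.6 and 19.6 FPKM. In these 4 genes Jurkat was 1.85-fold to 3.07-fold higher. PSMA1, PSMA2 and PSMA6 were listed much lower. PSMA1 had 15.4 FPKM in Jurkat and 9.54 FPKM in TALL104, PSMA6 had 9.52 and 2.23 FPKM, and PSMA2 had 2.17 and 1.38 FPKM. PSMA2 was the alpha gene that did not pass the threshold, and it rested on 201 and 104 reads, which gives a ratio of 1.58 (1.24 to 2.02).

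Those 3 human alpha genes share most of their coding bases with another gene on the same strand that has its own row in the table. The shared part was 97.8% of the coding bases for PSMA2, 88.6% for PSMA1 and 70.4% for PSMA6. The overlapping genes were themselves listed at 0 to 0.574 FPKM. Whether reads that fit both genes were left uncounted was not tested, and the levels of PSMA1, PSMA2 and PSMA6 in the human lines are uncertain. Without them the alpha ring median was 1.15 and the count over all members was 24 of 31.

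In the mouse lines the alpha ring held some of the highest levels of the whole machine. Psma2 led with 252 FPKM in EL4 against 328 FPKM in IVA12, and Psma3 was lowest with 52.7 and 42.0 FPKM. Psma6 had 192 and 168 FPKM, Psma1 124 and 145 FPKM, Psma4 104 and 152 FPKM, and Psma7 60.8 and 67.9 FPKM. The alpha gene past the threshold was Psma5, at 135 FPKM in EL4 against 218 FPKM in IVA12, or 1.61-fold higher in IVA12 (1.56 to 1.67). Psma3 and Psma6 were the members with ratios above 0, at 0.32 and 0.19 on the log2 scale.

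**Figure D2:**
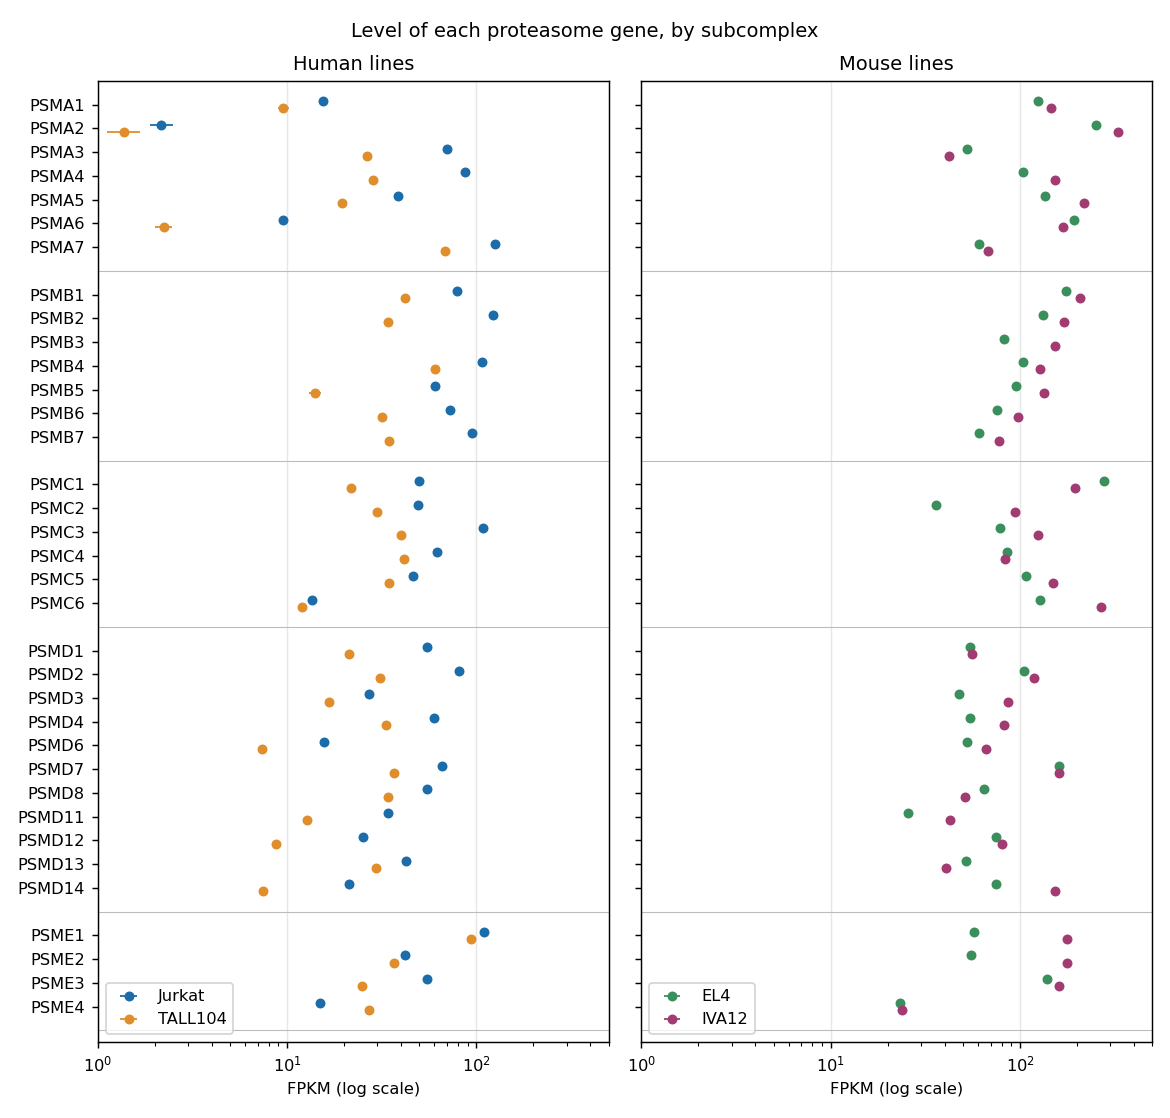
FPKM on a log axis for each proteasome gene, grouped from top to bottom as alpha ring, beta ring, ATPases, other subunits of the regulatory particle and activators, with 95% counting intervals that are mostly smaller than the points. Jurkat lies to the right of TALL104 for every measured human gene other than PSME4, and PSMA2 is the lowest human gene at 2.17 and 1.38 FPKM.

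The beta ring carries the catalytic sites, and in the human pair it showed the widest difference of the 5 groups. All 6 measured genes were more than 1.5-fold higher in Jurkat, beside 34.2% of all human genes with at least 1 FPKM in either line. The median log2 ratio of the 6 genes was 1.29. Summed, they reached 537 FPKM in Jurkat and 217 FPKM in TALL104. PSMB5, the subunit with chymotrypsin-like activity and the target of bortezomib, had the highest ratio of all members. It stood at 60.7 FPKM in Jurkat and 14.0 FPKM in TALL104, a 4.34-fold difference (4.00 to 4.71). On hg19, PSMB5 (ENSG00000100804) lies on the minus strand at chr14:23485752-23504439.

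The other catalytic subunits followed in the same direction. PSMB7, which has trypsin-like activity, had 94.6 FPKM in Jurkat and 34.7 FPKM in TALL104, a ratio of 2.73 (2.60 to 2.87). PSMB6, which has caspase-like activity, had 72.2 and 31.8 FPKM, a ratio of 2.27 (2.13 to 2.42). Among the beta subunits without a catalytic site, PSMB2 had 123 and 34.2 FPKM, PSMB4 107 and 60.3 FPKM, and PSMB1 79.3 and 42.2 FPKM. PSMB4 had the highest mean of the group over both human lines, and PSMB5 the lowest.

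Between the mouse lines all 7 beta genes were lower in EL4. Of them 1 passed the threshold, beside 26.5% of all mouse genes higher in IVA12. That gene was Psmb3, a structural subunit, at 82.6 FPKM in EL4 against 153 FPKM in IVA12, which is 1.85-fold (1.80 to 1.92). The catalytic genes stayed under it. Psmb5 had 95.4 FPKM in EL4 against 133 FPKM in IVA12, Psmb6 had 75.4 and 97.9 FPKM, and Psmb7 had 60.6 and 77.6 FPKM. Psmb1 was the highest of the ring at 175 and 208 FPKM. Psmb2 had 132 and 170 FPKM, and Psmb4 had 103 and 127 FPKM. All 7 log2 ratios lay between -0.88 and -0.24. For Psmb7, 31.4% of the coding bases are shared with Nek6 on the other strand, and the strand setting of the read counting is not given in the sources used here.

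The 6 ATPases form the ring that unfolds substrates and drives them into the core. Between the human lines 3 of 6 passed the threshold, all higher in Jurkat, and the median log2 ratio was 0.63. Of all human genes with at least 1 FPKM in either line, 34.2% were higher in Jurkat by the same rule. PSMC3 led with 108 FPKM in Jurkat and 39.9 FPKM in TALL104, a ratio of 2.70 (2.58 to 2.82). PSMC1 had 49.9 and 21.7 FPKM, and PSMC2 had 49.2 and 30.0 FPKM. PSMC4 and PSMC5 were at 62.3 and 46.5 FPKM in Jurkat against 41.7 and 34.5 FPKM in TALL104, under the threshold. PSMC6 was lowest and nearest to equal, at 13.5 and 12.0 FPKM, a ratio of 1.12 (1.07 to 1.18). In PSMC1, 47.7% of the coding bases overlap NRDE2 on the other strand, and 26.1% of its transcript windows of read length occur unchanged in processed copies elsewhere.

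The mouse ATPases spread the most in direction. Psmc1 had the highest ratio of all mouse members, at 276 FPKM in EL4 against 196 FPKM in IVA12, or 1.41-fold higher in EL4 (1.37 to 1.45). Psmc2 went the other way, with 35.9 FPKM in EL4 against 94.0 FPKM in IVA12, or 2.62-fold higher in IVA12 (2.54 to 2.70). Psmc6 was 2.12-fold higher in IVA12, at 127 FPKM in EL4 against 269 FPKM in IVA12. Psmc3 was 1.61-fold higher in IVA12, at 77.9 and 125 FPKM. Psmc4 was near equal at 85.3 and 82.9 FPKM, and Psmc5 had 108 and 150 FPKM. Genes whose proteins sit in the same ring thus differed in opposite directions between these libraries, each by more than its counting interval.

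**Figure D3:**
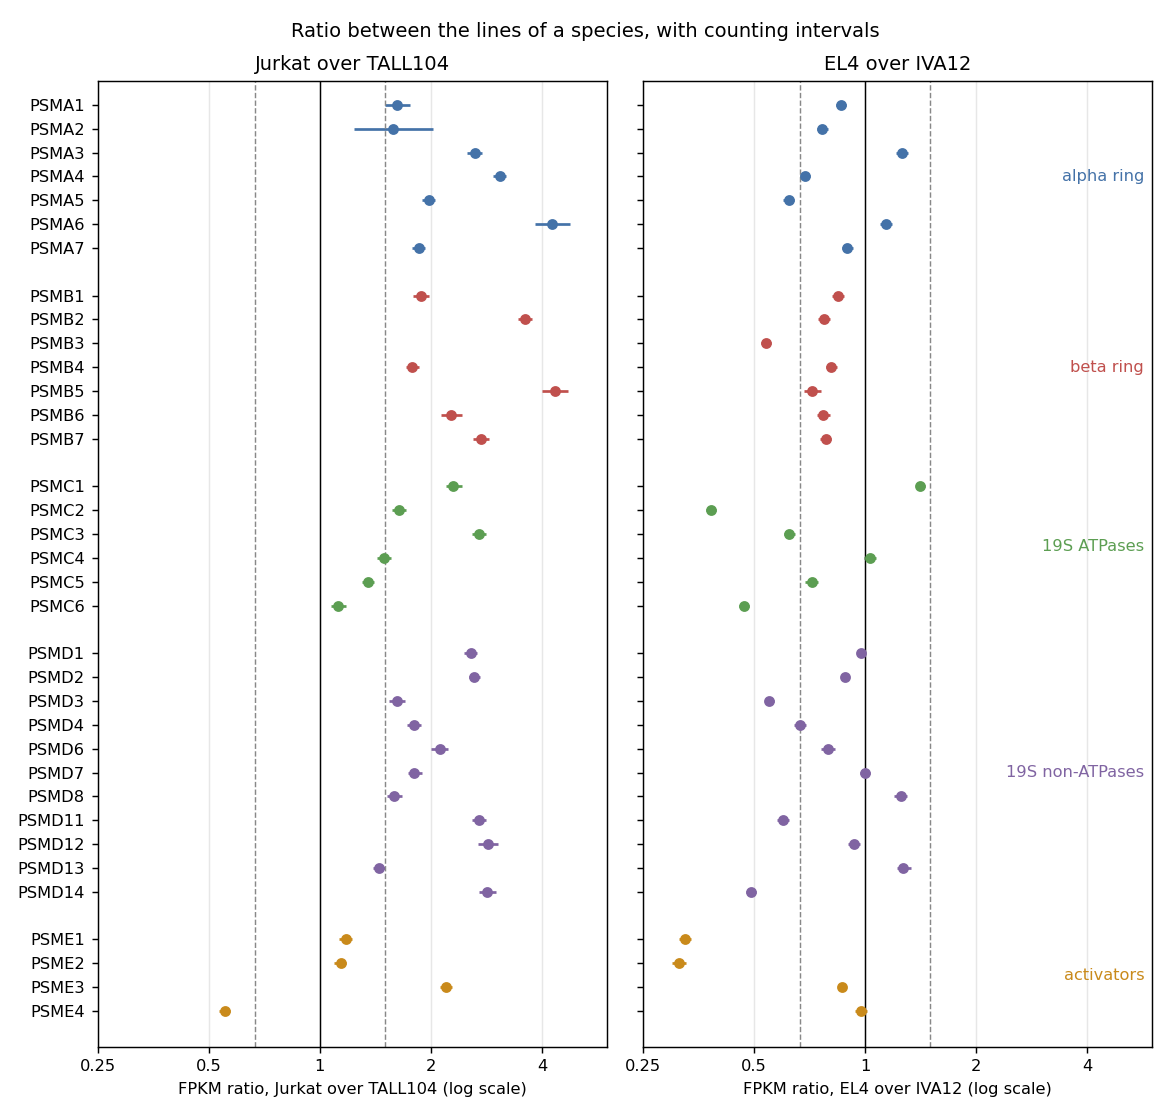
FPKM ratio of the first line over the second for each proteasome gene on a log axis, with 95% counting intervals, a solid line at a ratio of 1 and dashed lines at 1.5-fold in each direction. In the human pair PSMB5 lies farthest to the right at 4.34 and PSME4 is the gene to the left of 1, and in the mouse pair Psme1 and Psme2 lie farthest to the left at 0.325 and 0.313.

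The 11 other subunits of the regulatory particle include ubiquitin receptors, scaffold proteins and a deubiquitinase. Between the human lines 10 of 11 were more than 1.5-fold higher in Jurkat, and the median log2 ratio was 0.98. The background was 34.2% of all human genes with at least 1 FPKM in either line. PSMD2 and PSMD1, the large scaffold subunits, had 81.4 and 54.7 FPKM in Jurkat against 31.0 and 21.3 FPKM in TALL104. PSMD14, the deubiquitinase that cuts chains off substrates, had 21.3 FPKM in Jurkat and 7.49 FPKM in TALL104, a ratio of 2.84. PSMD7, the inactive partner of PSMD14, had 66.0 and 36.6 FPKM, with 28.4% of its coding bases shared with a gene on the other strand. PSMD4, a ubiquitin receptor, had 59.9 and 33.3 FPKM.

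The lid proteins PSMD12 and PSMD11 were among those with the widest gap. PSMD12 had 25.1 FPKM in Jurkat and 8.79 FPKM in TALL104, a ratio of 2.85, and PSMD11 had 34.2 and 12.7 FPKM, a ratio of 2.69. PSMD6 was the lowest of the group, at 15.6 and 7.38 FPKM. PSMD8 had 54.6 and 34.3 FPKM, and PSMD3 had 27.0 and 16.7 FPKM. PSMD13 was the subunit that stayed under the threshold, at 42.7 FPKM in Jurkat and 29.5 FPKM in TALL104.

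Between the mouse lines 3 of these 11 genes were higher in IVA12 and none was higher in EL4. Over all mouse genes with at least 1 FPKM in either line, 26.5% were higher in IVA12 and 23.8% in EL4. The share of these 11 genes higher in IVA12 was near that background. Psmd14 was 2.04-fold higher in IVA12 (1.98 to 2.11), at 74.5 FPKM in EL4 against 152 FPKM in IVA12. Psmd3 was 1.82-fold higher, at 47.6 and 86.6 FPKM, and Psmd11 was 1.67-fold higher, at 25.5 and 42.6 FPKM. Psmd4 lay at the edge of the threshold, at 54.4 and 81.9 FPKM with a counting interval of 1.45 to 1.56 for the plain FPKM ratio. Psmd7 was the highest of the group and equal in both libraries, at 161 and 160 FPKM. The rest had log2 ratios from -0.33 in Psmd6 to 0.34 in Psmd13, with Psmd1, Psmd2, Psmd8 and Psmd12 between them.

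The activators had the lowest median log2 ratio of the 5 groups in both species, at 0.20 between the human lines and -0.90 between the mouse lines. In the human lines their sum was 221 FPKM in Jurkat and 182 FPKM in TALL104, a ratio of 1.21. PSME1 and PSME2 encode the interferon-induced PA28 subunits, which form a single mixed ring. PSME1 had 110 FPKM in Jurkat and 93.3 FPKM in TALL104, and PSME2 had 41.8 and 36.8 FPKM, with ratios of 1.18 (1.13 to 1.22) and 1.14 (1.09 to 1.18). In TALL104, PSME1 was the highest of all 34 members, while in Jurkat it ranked 3.

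PSME3 and PSME4, whose proteins act mostly in the nucleus, went in opposite directions. PSME3 had 54.6 FPKM in Jurkat and 24.8 FPKM in TALL104, a ratio of 2.20 (2.11 to 2.28). PSME4, which encodes PA200, had 14.9 FPKM in Jurkat and 27.1 FPKM in TALL104, or 1.81-fold higher in TALL104 (1.75 to 1.88). Without the 4 activators, 25 of 30 human genes were more than 1.5-fold higher in Jurkat and all 30 log2 ratios were above 0, from 0.15 to 2.04. The background was 34.2% of all human genes with at least 1 FPKM in either line.

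In the mouse lines the PA28 genes had the widest difference of all members. Psme1 had 57.2 FPKM in EL4 against 176 FPKM in IVA12, or 3.08-fold higher in IVA12 (2.97 to 3.19). Psme2 had 55.3 FPKM in EL4 against 176 FPKM in IVA12, or 3.19-fold (3.06 to 3.33). Both lie close together on mm10, at chr14:55578123-55581529 for Psme1 and chr14:55587441-55591113 for Psme2. Their levels matched within each library, at 57.2 beside 55.3 FPKM in EL4 against 176 beside 176 FPKM in IVA12. Psme3 had 139 and 161 FPKM, and Psme4 was lowest at 23.3 and 23.9 FPKM. In Psme2, 44.2% of the transcript windows of read length also occur unchanged in the copy Psme2b, against 0.988% shared with another gene in Psme1, and how reads with several alignments were counted is not given in the sources used here.

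The next comparison set the constitutive catalytic subunits beside the inducible ones that can replace them. PSMB9 takes the place of PSMB6, PSMB10 that of PSMB7, and PSMB8 that of PSMB5. PSMB8 was the highest of the 3 inducible genes in both human lines, at 67.8 FPKM in Jurkat and 37.1 FPKM in TALL104. Of its coding bases, 14.0% are shared with PSMB8-AS1 on the other strand, listed at 6.13 FPKM in Jurkat and 29.7 FPKM in TALL104. PSMB9 was near equal at 12.5 and 12.2 FPKM, and PSMB10 had 12.6 and 16.1 FPKM, with 58.3% of its coding bases shared with a gene on the same strand. PSMB8 passed the threshold in favour of Jurkat, and PSMB9 and PSMB10 did not pass it in either direction.

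Within a library, the ratio of the constitutive to the inducible gene was lower in TALL104 than in Jurkat at all 3 positions. PSMB5 over PSMB8 was 0.895 (0.858 to 0.935) in Jurkat and 0.377 (0.346 to 0.411) in TALL104, so that in both lines the inducible transcript was the more abundant per length. PSMB6 over PSMB9 was 5.77 (5.42 to 6.15) in Jurkat and 2.61 (2.41 to 2.84) in TALL104. PSMB7 over PSMB10 was 7.48 (6.95 to 8.05) in Jurkat and 2.16 (1.99 to 2.34) in TALL104. The constitutive genes were 2.27-fold to 4.34-fold higher in Jurkat, and the inducible genes had ratios of 0.787 to 1.83.

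Of the 3 mouse inducible genes, Psmb8 and Psmb9 passed the threshold and Psmb10 did not. Psmb8 had 75.1 FPKM in EL4 against 23.6 FPKM in IVA12, or 3.19-fold higher in EL4 (2.95 to 3.45). Psmb9 had 35.1 and 10.1 FPKM, or 3.47-fold higher in EL4 (3.23 to 3.73). Psmb10 had 31.6 and 39.6 FPKM. Psmb5 over Psmb8 was accordingly 1.27 (1.21 to 1.34) in EL4 and 5.63 (5.21 to 6.09) in IVA12, and Psmb6 over Psmb9 was 2.15 (2.06 to 2.24) and 9.69 (9.03 to 10.4). Psmb7 over Psmb10 had overlapping intervals, at 1.92 (1.81 to 2.04) and 1.96 (1.85 to 2.08). IVA12 thus had the higher Psme1 and Psme2 transcript levels and the lower Psmb8 and Psmb9 transcript levels. All 4 genes are known to respond to interferon, and the cause of these differences was not tested.

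**Figure D4:**
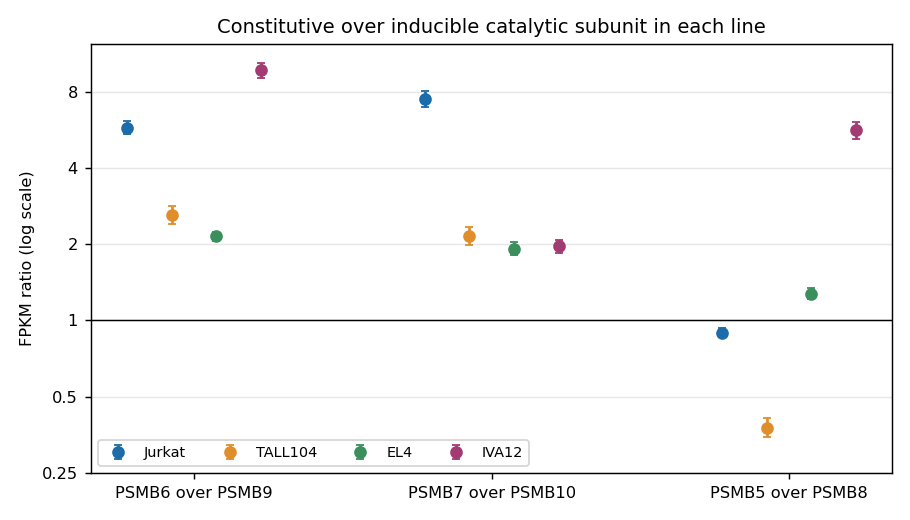
FPKM of the constitutive catalytic subunit over that of its inducible counterpart within each library, on a log axis with 95% counting intervals and a line at 1. PSMB5 over PSMB8 falls below 1 in Jurkat and TALL104 and reaches 5.63 in IVA12, while PSMB7 over PSMB10 is close to 2 in TALL104, EL4 and IVA12.

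The remaining pathway genes were taken from 6 lists with 44 genes in all. In the human pair 18 of the 44 were more than 1.5-fold higher in Jurkat and 2 were higher in TALL104, with a median log2 ratio of 0.44. The mouse pair had 43 measured genes, and EL4 was higher for 5 of them and IVA12 for 9, with a median of -0.08. Both mouse shares were below the 23.8% and 26.5% of all mouse genes. The human share of 18 in 44 was only a little above the background of 34.2%, and below the share among the subunits themselves. The 2 in 44 higher in TALL104 were below the background of 28.4%. Of the tissue subunits, PSMA8, an alpha subunit of the testis, had 6.53 FPKM in Jurkat. It was listed at 0 in TALL104, so that Jurkat was at least 117-fold higher against a floor of 3 reads per library, while the counting interval of the ratio began lower, at 94.6. PSMB11 of the thymus was listed at 0 in all 4 libraries, and Psma8 was at 0 in both mouse lines.

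The assembly chaperones build the core and the regulatory particle and then leave. Of the human chaperones 4 of 9 passed the threshold, all in favour of Jurkat, with a median log2 ratio of 0.55. Over all human genes with at least 1 FPKM in either line, 34.2% were higher in Jurkat. PSMG1, which pairs with PSMG2 to start the alpha ring, had 29.2 FPKM in Jurkat and 8.12 FPKM in TALL104, a ratio of 3.60. POMP, which guides the beta ring, had 94.0 and 35.3 FPKM, a ratio of 2.66 (2.51 to 2.83). Of the mouse chaperones 1 of 8 was higher in each direction, beside 23.8% of all mouse genes higher in EL4 and 26.5% higher in IVA12. Psmd10, a chaperone of the ATPases, was 2.13-fold higher in EL4 at 29.5 and 13.9 FPKM, and Psmg3 was 1.71-fold higher in IVA12 at 6.62 and 11.3 FPKM, with 59.0% of its coding bases shared with another gene on the same strand.

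Among 12 other subunits and associated enzymes, 6 were higher in Jurkat and 1 in TALL104, beside 34.2% and 28.4% of all human genes. USP14, a deubiquitinase that sits on the regulatory particle, had 66.0 FPKM in Jurkat and 17.2 FPKM in TALL104, a ratio of 3.84 (3.69 to 3.99), and SEM1, the smallest lid subunit, had a ratio of 3.48. The gene higher in TALL104 was ECPAS, whose protein binds the proteasome and which was 2.90-fold higher in TALL104 (2.77 to 3.05) at 8.12 FPKM in Jurkat and 23.6 FPKM in TALL104. Of the mouse genes 4 of 12 were higher in IVA12 and 0 in EL4, beside 26.5% and 23.8% of all mouse genes. The widest were Ublcp1, a phosphatase of the proteasome, at 8.98 and 22.8 FPKM, and Zfand5, at 10.4 and 22.3 FPKM.

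The transcription factor NFE2L1 restores proteasome gene expression when proteasome activity falls, after DDI2 and NGLY1 have processed it. In the human pair NFE2L1 was 1.55-fold higher in Jurkat (1.49 to 1.61), at 39.7 FPKM in Jurkat and 25.7 FPKM in TALL104. DDI2 was 2.20-fold higher in Jurkat, with 60.0% of its coding bases shared with another gene on the same strand. NFE2L2, the related factor of the oxidative stress response, was 2.10-fold higher in TALL104 (2.01 to 2.21). In the mouse pair Nfe2l1 was 2.10-fold higher in IVA12 (2.03 to 2.18) at 26.7 and 56.3 FPKM, and Nfe2l2 was 1.65-fold higher in EL4 (1.56 to 1.74). Not every gene of this list differed, since the ratio of NGLY1 was 0.999 (0.946 to 1.06) in the human pair. The ratio of Ddi2 was 0.993 (0.941 to 1.05) between the mouse lines, with 59.3% of its coding bases shared with another gene on the same strand. Human NFE2L1, human NGLY1 and mouse Ddi2 were singled out after their values were seen.

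Upstream of the proteasome, 3 of 8 shuttle and VCP genes were higher in Jurkat and 3 of 8 were higher in IVA12, beside 34.2% of all human genes and 26.5% of all mouse genes with at least 1 FPKM in either line. The human share was near its background. The human example was RAD23B, which carries ubiquitin chains to the proteasome, with a ratio of 1.85. The mouse examples were Nploc4, a cofactor of the segregase VCP, at 36.7 and 70.9 FPKM, and Ubqln2, a shuttle, at 2.87 and 6.04 FPKM. Of the ubiquitin and E1 genes, UBA1, the main enzyme of ubiquitin activation, was 2.01-fold higher in Jurkat. Uba6, a second activating enzyme, had 17.3 FPKM in EL4 against 11.4 FPKM in IVA12.

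Levels were next compared within each subcomplex. The positions of the alpha, beta and ATPase rings are filled in equal number, although inducible subunits can take the catalytic ones. The activators are not parts of a single particle. The beta ring was the most even group in Jurkat, IVA12 and EL4, with a coefficient of variation of 26.0%, 31.7% and 37.6%. In TALL104 it had 41.6% and the ATPases had 38.0%. The highest beta gene exceeded the lowest by 2.03-fold to 4.31-fold, least in Jurkat and most in TALL104. The alpha ring was wider, at 58.1-fold in Jurkat and 49.5-fold in TALL104. Without PSMA1, PSMA2 and PSMA6 it was 3.26-fold and 3.47-fold over the other 4 genes, beside 4.77-fold in EL4 and 7.82-fold in IVA12 over all 7 genes. The level of a transcript per length therefore varied by at least 2.03-fold among subunits of the same ring. Gene lengths enter these ranges. In Jurkat, PSMA5 and PSMA7 had 7704 and 7671 reads, at lengths of 5737 and 1750 bases and levels of 38.6 and 126 FPKM. How much of the spread reflects gene length was not tested.

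The order of the members by level was alike between lines of a species and not between species. Over the 34 human genes, Pearson's r of log2(FPKM + 1) between Jurkat and TALL104 was 0.879, and over the 35 mouse genes it was 0.805 between EL4 and IVA12. Between species it lay between -0.276 and -0.136. Without the 3 genes that share most of their coding bases, the values between species rose to between 0.0786 and 0.280. Gene lengths enter these values, since the same gene is given a different length in each species. The log2 ratios of the pairs were almost unrelated across members, with r of 0.21 and Spearman's rho of 0.13 (n = 34).

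Reads from a gene can also be split with near-identical copies elsewhere in the genome. Beside PSMC1 and Psme2, copies held 27.1% of the transcript windows of Psma5, 23.3% of Psmb5, 20.6% of Psma3 and 17.6% of Psmb3, so the levels of these genes are less certain. Each other member had at most 8.73% of its windows in such copies.

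The lengths behind the FPKM were in the median 1.51 times longer for the human gene than for its mouse counterpart. PSMC6, for example, was given 7482 bases in human and 1564 bases in mouse. The mean FPKM of the mouse lines was 15.5 times that of the human lines for PSMC6, and the mean share of library reads, which holds no gene length, was 3.25 times that of the human lines. Across the 31 genes without shared coding bases, the log2 FPKM ratio between species had an r of 0.86 with the log2 length ratio, which it contains as a factor. As shares of library reads these 31 genes lay between 0.856 and 3.25 times the human value, with a median of 1.45. PSMA2, PSMA1 and PSMA6 stood outside this range at 57.9, 6.10 and 5.83 times.

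**Figure D5:**
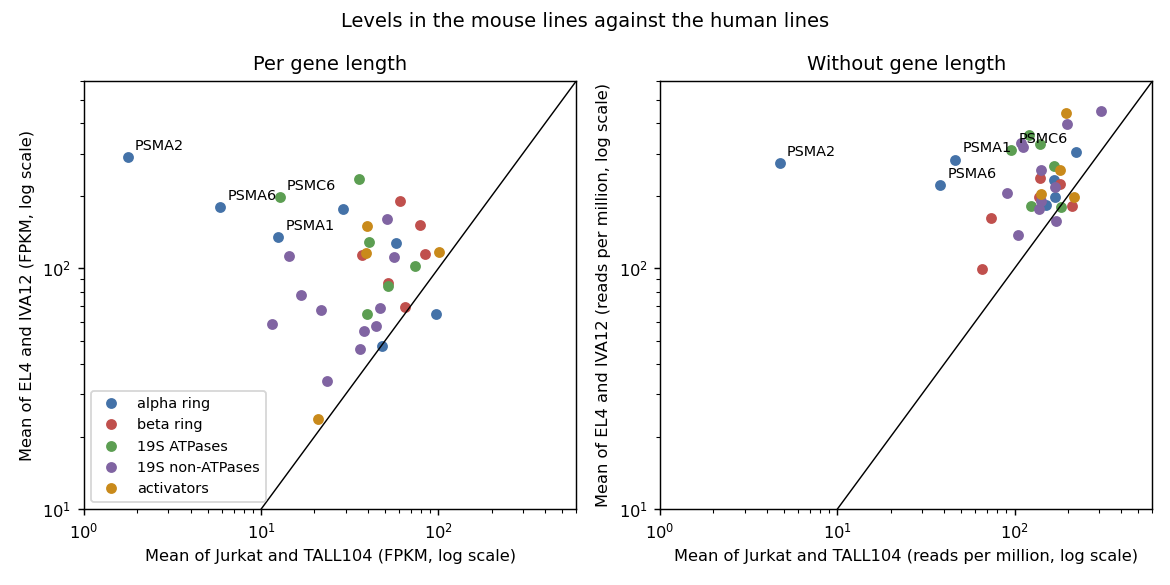
Mean level of each measured proteasome gene in EL4 and IVA12 against its mean in Jurkat and TALL104, as FPKM (left) and as reads scaled to the library total alone (right), on log axes with a line of equality. PSMA2, PSMA1 and PSMA6 stay apart in both panels, while PSMC6 comes close to the other genes once gene length is left out.

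The genes of the proteasome are spread over the genome. The 34 human genes lie on 13 chromosomes, with 7 on chromosome 14 and 6 on chromosome 17. The 35 mouse genes lie on 14 chromosomes, with 8 on chromosome 11 and 5 on chromosome 14. The genes on human chromosome 14 included PSMB5 and PSMA6, with the highest log2 ratios of their rings at 2.04 and 1.70, and also PSMC6, PSME1 and PSME2, with 0.15, 0.23 and 0.18.

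Promoter windows of 300 bases, 250 before and 50 after the start, were read from RefSeq on GRCh38.p14 for 30 of the 35 genes, which had 36 windows. The antioxidant response element is the site that NFE2L1 and NFE2L2 bind, and its core was searched on either strand as TGACNNNGC. It was present in 27.8% of the 36 windows and in 13.3% of all 35116 windows of the table, and in 27.9% of the 61 windows of the other pathway genes. The ETS core CCGGAAG was present in 30.6% against 10.3%, the CCAAT box in 44.4% against 34.6%, and TATAAA in 11.1% against 11.5%. Matches of different motifs overlapped in 0 cases. A match shows that the letters occur in the window and not that a factor was bound.

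The human genes with the antioxidant core upstream of the start and a single window are shown because NFE2L1 is a known regulator of proteasome genes. Whether it acts on the genes shown, which include the activators PSME1, PSME2 and PSME4, was not tested. Capitals mark the match, which lies on the reverse strand in PSME4, and all are written 5′ to 3′ along the gene.
PSMB3, chr17:38752597-38752685, plus strand: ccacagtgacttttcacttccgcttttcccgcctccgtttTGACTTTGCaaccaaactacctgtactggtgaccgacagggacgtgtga
PSMD3, chr17:39980730-39980806, plus strand: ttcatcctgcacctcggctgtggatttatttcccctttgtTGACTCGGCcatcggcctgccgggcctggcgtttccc
PSMD12, chr17:67366694-67366782, minus strand: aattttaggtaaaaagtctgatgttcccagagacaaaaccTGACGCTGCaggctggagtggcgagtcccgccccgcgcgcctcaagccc
PSME1, chr14:24136068-24136156, plus strand: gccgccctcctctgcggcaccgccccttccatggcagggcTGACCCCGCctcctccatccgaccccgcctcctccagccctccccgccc
PSME2, chr14:24146737-24146825, minus strand: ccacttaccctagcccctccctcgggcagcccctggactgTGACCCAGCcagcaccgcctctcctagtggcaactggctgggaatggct
PSME4, chr2:53970994-53971067, minus strand: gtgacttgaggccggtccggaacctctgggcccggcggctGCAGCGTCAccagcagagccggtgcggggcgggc

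The ETS core had the widest excess over all windows, and 3 examples are shown with the core in capitals, on the reverse strand in PSMD8 and PSMD12. Among genes with a single window and a core that ends before the start, these are the 3 in which it lay nearest to the start.
PSMD8, chr19:38374514-38374570, plus strand: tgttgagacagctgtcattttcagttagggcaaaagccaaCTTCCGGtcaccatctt
PSMD12, chr17:67366578-67366625, minus strand: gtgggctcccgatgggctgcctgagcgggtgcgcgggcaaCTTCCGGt
PSMD13, chr11:236924-236975, plus strand: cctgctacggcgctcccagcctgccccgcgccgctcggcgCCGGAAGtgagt

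The median log2 ratio, Jurkat over TALL104, was 0.57 in the 9 measured genes with the antioxidant core and 1.04 in the 20 without it. The 9 genes ranged from -0.82 in PSME4 to 1.58 in PSMA4. They include the activators PSME1, PSME2 and PSME4, at 0.23, 0.18 and -0.82, from the group with the lowest median. PSMD12, PSMD1, PSMD3, PSMC4 and PSMC5 had 1.41, 1.32, 0.66, 0.57 and 0.42. The genes with and without the antioxidant core therefore also differ in subcomplex make-up. For the ETS core the medians were 0.83 in 11 genes and 1.02 in 18 genes. These medians describe a single pair of libraries and were not tested.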

How the data were processed

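The authors aligned paired reads with STAR 2.5.1b to a combined hg19 and mm10 reference (Ensembl 82 and 84), counted them per gene with featureCounts 1.6.3 and deposited FPKM. The strand setting, the gene lengths and the treatment of reads that align more than once are not given in the sources used here. The table had 0 further columns per library.

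Whole reads were recovered from the FPKM by solving for the library total and a gene length of at most 300000 bases, at a relative tolerance of 1e-09. Every value above 0 came out whole. Where a common factor was missed, a gene has more reads than stated and its interval is too wide. The recovered reads summed to 98.05% to 99.26% of the totals. Levels have exact Poisson intervals and ratios have Clopper-Pearson intervals, at 95%, for counting error only.

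Identifiers were matched to symbols and positions in GENCODE, release 44 on GRCh37 for human and release M21 for mouse. Libraries were grouped by cell line and compared within a species on log2(FPKM + 1), which draws low genes toward equality. With 1 library per line no test was made, and genes past 1.5-fold were counted. Overlap with other genes was counted over coding bases, and copies over windows of 101 bases of the longest coding transcript.

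The members, lists, thresholds and alternatives were chosen with earlier results of these data known. The text gives values for the highest and lowest member of each subcomplex, the highest and lowest ratio of each pair, each member past 1.5-fold, the catalytic subunits and, of each pathway list, the 2 genes with the largest absolute ratio. ECPAS, human NFE2L1, human NGLY1 and mouse Ddi2 were named after their values were seen. Some genes that this rule names are not reported here. Lengths, copies and the alternative without genes that share over 50% of their coding bases were added after the data were seen.

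On simulated data with 200 changed genes per pair, all 200 were called in the right direction, and 7 of 30982 unchanged human and 6 of 27445 unchanged mouse genes were called. All planted changes exceeded the 1.5-fold threshold and lay in genes above a minimum level. Unchanged genes varied by counting error alone, and many had few or no reads. The simulation therefore checked the calculation and cannot show how often differences between cultures or libraries pass the threshold. The software was Python 3.11.15 with SciPy 1.17.1, pandas 2.3.3, matplotlib 3.10.9 and NumPy 2.4.6.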

Additional observations from a re-analysis of the deposited data

Results flagged for a closer look

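Reads on proteasome genes of the other species appeared in every library, in rows that no comparison used. They reached 0.0901% of the FPKM of the library's own proteasome genes in Jurkat, from 120 reads on mouse genes, and 0.124% in TALL104, from 72 reads. In EL4 the share was 0.0265%, from 96 reads on human genes, and in IVA12 it was 0.0709%, from 271 reads. The highest such gene was PSMA7 in IVA12, at 0.339 FPKM from 15 reads. Their source was not tested.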

How the results depend on the processing

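No alternative turned a direction in the member counts, member medians or summed shares. Scaling by the median ratio, or to equal totals without mitochondrially encoded genes, lowered the human median from 0.92 to 0.81 in both cases. At 2-fold, the genes higher in Jurkat fell to 15, those higher in TALL104 to 0 and those higher in IVA12 to 5. The summed share, as a share of recovered reads and then without mitochondrially encoded genes, was 0.649% and 0.888% in Jurkat, 0.338% and 0.486% in TALL104, 0.747% and 1.11% in EL4, and 0.996% and 1.46% in IVA12.

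The correlation of levels is given as Spearman's rho, then r without the 4 activators, then r without genes that share most of their coding bases, a choice made after seeing the data. It was 0.793, 0.924 and 0.775 for Jurkat with TALL104, and 0.779, 0.839 and 0.779 for EL4 with IVA12. For Jurkat it was 0.0295, -0.249 and 0.280 with EL4, and -0.0677, -0.316 and 0.188 with IVA12. For TALL104 it was -0.0591, -0.249 and 0.0814 with EL4, and -0.0414, -0.298 and 0.0786 with IVA12. The sign between species thus depended on this choice. With 1 library per line, depth sets only the counting error, and the spread between cultures is unknown.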
